A study of Mus musculus with 30 samples.

Results

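Mammalian promoters are commonly transcribed in both directions, and the transcription units described here are the non-coding ones that start near a gene start on the opposite strand. They are the units of the deposited TT-seq table classed as non-coding RNA whose 5′ end lay within 2000 bp of the 5′ end of a gene on the opposite strand, with no same-strand overlap with a long terminal repeat (LTR) copy and no overlap with the ribosomal RNA repeat Rn45s. The rule took 5175 of the 42029 non-coding units, out of 382367 units of all kinds, and these lay opposite the starts of 5069 of the 20541 genes in the table. It used position and strand alone, so levels and changes were not part of the choice. The cells were mouse embryonic stem cells, called dTKO, with the genotype Suv39h1fl/fl; Suv39h2-/-; Setdb1fl/fl, grown with LIF and serum on gelatin. They were given 100 µg/ml auxin together with 0.5 µM dTAG13 and were taken after 0, 3, 12, 24 or 48 h, with 3 libraries a time and the 0 h libraries as the baseline. Every group therefore carried the Suv39h2 deletion and the 2 floxed alleles, 0 h included, and all samples are of this line. Loss of the histone H3 lysine 9 methyltransferases as proteins was not measured in these files. RNA made in the last 10 min was labelled with 1 mM 4-thiouridine, and 110 µg of total RNA was mixed with 1 µg of labelled yeast RNA before purification.

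A promoter that initiates in both directions sends 1 polymerase into the gene and another away from it. In mammalian cells the outward polymerase usually terminates early, and its RNA is capped but destroyed by the nuclear exosome within minutes, so that total RNA hardly shows it while a short labelling pulse does. Some divergent transcripts escape this and are stable long non-coding RNAs or hosts of small nucleolar RNAs. Histone H3 lysine 9 trimethylation by SUV39H1, SUV39H2 and SETDB1 silences repeats and some genes in mouse embryonic stem cells.

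The promoters below belong to pairs among those named in this report with the largest unit rises, unit falls or ratio rises at 48 h. Promoters of pairs with the largest ratio falls are not shown. They are printed because the gene starts in this stretch and the unit starts in it or further upstream. At Cyp4a29 and Defb48 the unit starts 643 and 891 bp upstream of the RefSeq gene start, and at Nrd1 254 bp, outside the bases printed. Each printed promoter is 300 bases, with 250 bases before the gene start and 50 after it. It is taken from RefSeq on GRCm38.p6 and written 5′ to 3′ on the strand of the gene. The unit runs the other way. Capitals mark 4 motifs searched on both strands. They are the TATA box letters TATAAA, the CCAAT box, the GC box letters GGGCGG and the letters GCGCATGC of the NRF1 motif, and none of the marked matches overlap each other. At these 4 genes the unit rose.
Cyp4a29 (chr4:115241794-115242093, plus strand): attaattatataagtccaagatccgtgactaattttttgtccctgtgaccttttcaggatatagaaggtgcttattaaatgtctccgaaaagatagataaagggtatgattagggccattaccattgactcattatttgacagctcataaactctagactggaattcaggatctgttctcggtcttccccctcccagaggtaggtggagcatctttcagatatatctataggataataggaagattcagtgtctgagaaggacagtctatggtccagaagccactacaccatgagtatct
Defb48 (chr14:62984461-62984760, minus strand): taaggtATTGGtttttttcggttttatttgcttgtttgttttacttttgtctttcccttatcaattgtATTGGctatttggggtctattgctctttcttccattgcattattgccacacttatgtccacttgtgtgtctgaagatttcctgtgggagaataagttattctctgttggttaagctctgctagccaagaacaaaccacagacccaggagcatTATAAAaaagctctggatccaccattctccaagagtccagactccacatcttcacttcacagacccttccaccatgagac
Nrd1 (chr4:109000405-109000704, plus strand): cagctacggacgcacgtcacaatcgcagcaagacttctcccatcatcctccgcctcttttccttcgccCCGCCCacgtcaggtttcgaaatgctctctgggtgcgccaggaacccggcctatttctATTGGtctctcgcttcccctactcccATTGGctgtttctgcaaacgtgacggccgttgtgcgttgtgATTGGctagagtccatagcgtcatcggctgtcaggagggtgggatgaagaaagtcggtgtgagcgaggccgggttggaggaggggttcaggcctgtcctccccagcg
Ghitm (chr14:37135273-37135572, minus strand): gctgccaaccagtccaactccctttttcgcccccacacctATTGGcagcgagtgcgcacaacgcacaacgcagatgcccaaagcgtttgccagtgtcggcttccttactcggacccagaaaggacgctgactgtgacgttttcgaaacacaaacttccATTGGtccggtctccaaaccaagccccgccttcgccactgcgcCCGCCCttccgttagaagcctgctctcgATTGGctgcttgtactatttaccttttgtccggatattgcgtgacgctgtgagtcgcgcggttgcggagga
At these 2 genes the unit fell.
Nob1 (chr8:107424989-107425288, minus strand): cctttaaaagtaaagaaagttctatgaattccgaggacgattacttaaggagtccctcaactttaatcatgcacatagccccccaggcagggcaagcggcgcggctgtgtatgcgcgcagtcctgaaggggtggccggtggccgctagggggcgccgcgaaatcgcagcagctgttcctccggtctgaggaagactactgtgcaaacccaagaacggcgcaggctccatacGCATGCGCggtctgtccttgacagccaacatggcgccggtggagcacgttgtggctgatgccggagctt
Fgf4 (chr7:144861136-144861435, plus strand): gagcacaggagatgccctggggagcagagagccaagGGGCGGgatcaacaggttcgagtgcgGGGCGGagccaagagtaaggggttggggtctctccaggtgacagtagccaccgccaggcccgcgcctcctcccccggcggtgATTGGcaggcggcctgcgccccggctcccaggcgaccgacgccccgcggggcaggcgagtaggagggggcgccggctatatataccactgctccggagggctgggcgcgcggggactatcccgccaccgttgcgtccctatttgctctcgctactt

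The promoter of Cyp4a29, a cytochrome P450 gene, held none of the 4 motifs, and that of the beta-defensin gene Defb48 held TATAAA and 2 inverted CCAAT runs. Both had a GC content near 40% (39.7% and 40.3%) and few CpG, with an observed-to-expected CpG ratio of 0.255 at Cyp4a29 and 0.0836 at Defb48. The promoters of Nrd1 and Ghitm had 59.0% and 57.0% GC, CpG ratios of 0.843 and 1.06, and 3 inverted CCAAT runs and 1 inverted GGGCGG each. Nob1 had a single inverted GCGCATGC at 58.3% GC, and Fgf4 had 2 runs of GGGCGG and 1 inverted CCAAT at 69.7% GC. Among all 14406 promoters of this length for genes in the table, TATAAA was in 9.49%, CCAAT in 38.3%, GGGCGG in 54.6% and GCGCATGC in 4.35%. A comparison of promoters with and without a divergent unit is void here, because the sequence table covers 74.6% of the genes with a unit and 70.1% of all genes, under the 80% required. A match is a run of letters and not a measured binding site.

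Divergent units clustered just upstream of their genes. Of the 5175 units, 3002 (58.0%) started upstream of the gene start and 2173 started at or downstream of it. The densest stretch was the first 250 bp upstream, with 1974 units, followed by 600 units between 250 and 500 bp. Only 186 units started 500 to 1000 bp upstream and 242 started 1000 to 2000 bp upstream. From the gene start downstream, 1050 units started within the first 500 bp, 553 between 500 and 1000 bp and 570 between 1000 and 2000 bp. The median distance between the 5′ ends was 253 bp, and 3626 units lay within 500 bp. Unit ends fall on a grid of 200 bp in the deposited table (mm10, GRCm38, coordinates as deposited), so distances are no finer than that.

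**Figure D1:**
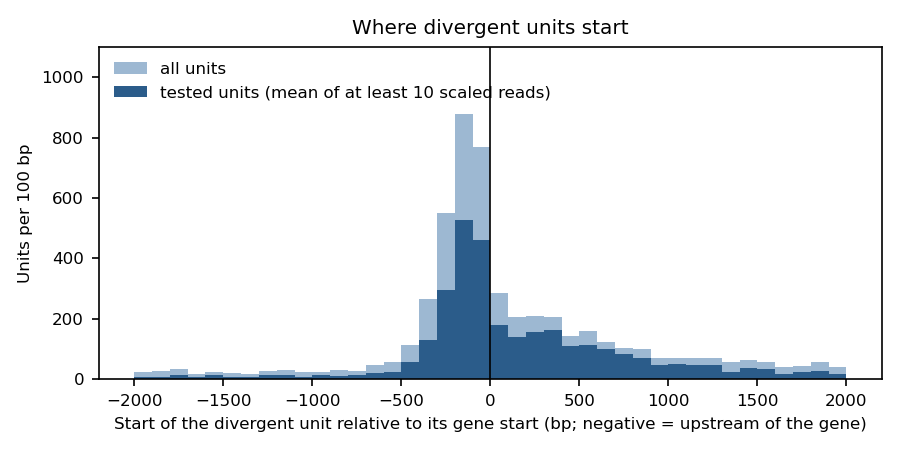
Number of divergent units per 100 bp (vertical axis) against the position of their start relative to the gene start (horizontal axis, bp, negative values upstream of the gene), for all 5175 units in light blue and the 3129 tested units in dark blue. The counts peak in the first 250 bp upstream of the gene start, where 1974 units start, and tail off downstream of the gene start.

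Most divergent units had no name. Of the 5175, 4067 (78.6%) overlapped no GENCODE M21 gene on their own strand, 914 (17.7%) overlapped a long non-coding RNA gene, 62 a small RNA gene, 49 a protein-coding gene and 83 a gene of another kind. They were 200 to 167800 bp long with a median of 1800 bp, with quartiles of 800 and 4000 bp. In all, 2142 units (41.4%) overlapped the body of the gene they face and 3033 did not. A copy of an LTR element lay on the opposite strand within 671 units, and 101 units had 2 or more genes within the distance.

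Values are scaled reads, the deposited read counts divided by a factor for each library. A unit entered the tests when its mean over all 15 libraries was at least 10 scaled reads. Of the divergent units 3129 (60.5%) did so, against 30.4% of the 28824 other non-coding units without a same-strand LTR copy, while 2046 did not and are not part of any count of changes. The mean of tested divergent units had a median of 30.6 scaled reads, with quartiles of 17.1 and 66.3. Per kb of unit, tested divergent units had a median of 9.53 scaled reads, against 11.7 for the other tested non-coding units. Set against its own gene, also per kb, the level of the unit had a median log2 ratio of −1.96, and its 5th and 95th percentiles were −4.71 and 1.44. The unit was the higher of the pair per kb in 399 of 3057 tested pairs.

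Of the 8 units with the highest level at 0 h, 6 held a known non-coding RNA gene on their own strand. The unit at Sspn, the gene of the membrane protein sarcospan, averaged 9744 scaled reads at 0 h and overlapped no annotated gene. The unit at the ribosomal protein gene Rps29 averaged 6279 and holds Rn7s1, a 7SL RNA of the signal recognition particle with near-identical copies, so that its reads are uncertain. The unit at Zbtb37 averaged 5643 and holds Gas5, a host of small nucleolar RNAs, and the unit at the amino acid transporter gene Slc3a2 averaged 4152 and holds Snhg1, another such host. The units at Ccdc107 and Parp2 averaged 4374 and 2834 and hold Rmrp and Rpph1, the RNA parts of RNase MRP and RNase P. The unit at the importin gene Kpna1 averaged 5585 over the long non-coding RNA gene Gm15564. The unit at Mir6236 averaged 3478 scaled reads, and the gene row itself had nearly the same count, so reads of that pair cannot be told apart. At 48 h the changes of all 8 were small, between −0.48 and −0.14 on the log2 scale. Relative to all genes, the direction turned positive for Sspn (0.02), Rps29 (0.07), Kpna1 (0.22), Ccdc107 (0.11) and Mir6236 (0.08).

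The 15 libraries held 37122086 to 42293639 reads over all units, of which 278581 to 355517 were on divergent units. The strand setting of the counting, not given in the sources used here, matters where a unit overlaps its gene. Among 1472 tested units that overlap their gene, 7 had a read total within 5% of the gene's, and of 21 tested genes that lie wholly inside their unit 18 had more reads than the unit. Values for the units that do not overlap their gene are therefore given beside the main ones. All 10 embryonic stem cell markers were detected, with a summed level of 14189 to 14958 scaled reads at 48 h, against 20478 to 22529 at 0 h. Of the markers of other cells that such a culture can hold, 7 of 8 fibroblast genes were tested (435 to 600 at 48 h, against 314 to 393 at 0 h), 5 of 7 primitive endoderm genes (460 to 519, against 435 to 477) and 4 of 7 trophoblast genes (493 to 607, against 646 to 657). None of the genes on these lists was at 0 at 0 h, and their part in the changes below was not tested. In such bulk samples fewer cells of a type and less RNA per cell cannot be told apart.

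More divergent units fell than rose at 48 h. At this time 1436 of the 3129 tested units (45.9%) were lower than at 0 h and 130 (4.15%) were higher, with a median log2 change of −0.42 (limma on log2(scaled reads + 1), adjusted p under 0.05 over all 15730 tested non-coding units). At 24 h 559 (17.9%) were lower and 142 (4.54%) were higher, with a median of −0.16. At 12 h 171 (5.46%) were lower and 144 (4.6%) were higher, with a median of −0.01. At 3 h 186 (5.94%) were lower and 5 (0.160%) were higher, with a median of −0.23. Because the minimum is a mean over all times, some units passed it through the times at which they are high. With a mean of at least 10 scaled reads asked of the 0 h libraries instead, 96 of 3272 units were higher and 1573 lower at 48 h, and 2 were higher and 168 lower at 3 h. By size, 292 of the units lower at 48 h and 48 of those higher changed at least 2-fold. All 4 comparisons share the same 3 libraries at 0 h.

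Set against the 15730 tested non-coding units, few divergent units rose. Over all non-coding units the share called higher was 7.74% (3 h), 29.4% (12 h), 30.4% (24 h) and 29.3% (48 h), well above that of divergent units. These units too entered on a mean over all times, so some can have passed through the times at which they are high. The minimum at 0 h was not applied to this background, so the size of the contrast is a description. The share called lower was 8.06% (3 h), 11.1% (12 h), 24.8% (24 h) and 39.4% (48 h), so the share of divergent units that fell was below this background up to 24 h and above it at 48 h. Much of the upper background came from repeats, since 2702 of 3848 tested units over a same-strand LTR copy rose at 48 h. Among the 8752 other tested units with no LTR copy 20.3% rose and 47.5% fell at 48 h, with a median log2 change of −0.46, so the share that fell among divergent units was close to theirs.

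Genes as a whole moved too. The median log2 change of all 15261 tested genes was −0.24 (3 h), 0.18 (12 h), −0.08 (24 h) and −0.37 (48 h). Libraries of a time differed, and at 24 h in sign. For the genes of tested pairs the library medians were 0.00, 0.36 and 0.19 at 12 h and −0.19, 0.14 and −0.20 at 24 h. Those of divergent units were −0.14, 0.12 and 0.00 at 12 h and −0.21, 0.00 and −0.25 at 24 h. Whether the shift of gene medians is one of scaling, shared by every unit in a library, or one of the genes was not tested. After each library was rescaled to a common median over genes, the divergent units had a median change of 0.00 (3 h), −0.18 (12 h), −0.08 (24 h) and −0.07 (48 h). The higher units then numbered 33 (3 h), 86 (12 h), 246 (24 h) and 332 (48 h), and the lower units 26 (3 h), 576 (12 h), 512 (24 h) and 572 (48 h). On recovered reads, with their own scaling, edgeR called 51 units higher (3 h), 145 (12 h), 152 (24 h) and 190 (48 h), and 29, 447, 895 and 1205 lower at those times. DESeq2 called 13, 97, 165 and 210 higher and 11, 238, 388 and 548 lower. The lower median at 12 h thus appears relative to genes, and most of the lower median at 48 h is shared with genes. Left-out libraries moved the smaller counts: the 191 calls at 3 h came to 73 (0 h replicate 2 left out), 81 (0 h replicate 3), 105 (3 h replicate 1) and 55 (3 h replicate 2). The 315 calls at 12 h came to 207 without 0 h replicate 3.

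**Figure D2:**
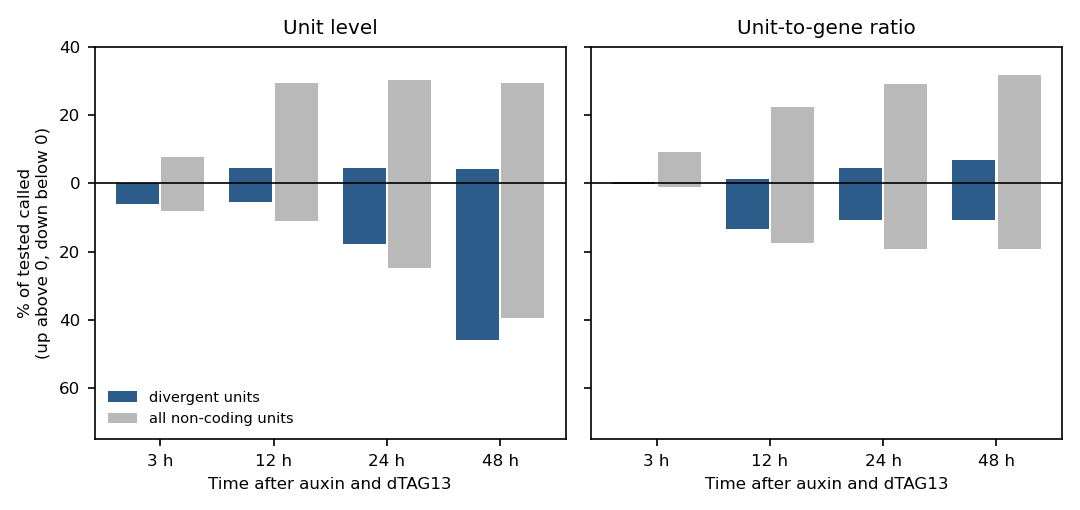
Percentage of tested units called higher (bars above 0) and lower (bars below 0) than at 0 h (vertical axis) at 3, 12, 24 and 48 h (horizontal axis), for divergent units and, to their right, all non-coding units, with the level in the first panel and the ratio of unit to gene in the second. At 48 h 4.15% of divergent units rose and 45.9% fell, against 29.3% and 39.4% of all non-coding units.

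The genes opposite these units moved with all genes. Of the 3051 genes of tested pairs 120 were higher and 2049 lower at 48 h, with a median log2 change of −0.38, and over all tested genes 7.65% were higher and 58.4% lower. At 3 h 5 were higher and 417 lower, against 0.636% and 13.5% of all genes. At 12 h 347 were higher and 29 lower, against 12.9% and 2.07% of all genes. At 24 h 141 were higher and 262 lower, against 7.21% and 12.2% of all genes. These gene counts rest on single libraries: the 422 at 3 h came to 224 (0 h replicate 1 left out), 55 (0 h replicate 2), 198 (0 h replicate 3), 125 (3 h replicate 1), 58 (3 h replicate 2), 662 (3 h replicate 3), 738 (12 h replicate 1), 698 (12 h replicate 2) and 1307 (24 h replicate 2). The 376 at 12 h came to 170 (0 h replicate 1 left out), 181 (0 h replicate 3), 1172 (12 h replicate 1), 167 (12 h replicate 2), 194 (12 h replicate 3) and 814 (24 h replicate 2). The 403 at 24 h came to 255 (0 h replicate 2 left out), 1016 (24 h replicate 2) and 265 (24 h replicate 3).

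Each unit was then compared with its own gene as the log2 ratio of unit to gene, in which the scaling of a library cancels. The widest shift was at 12 h, when the ratio fell in 411 and rose in 36 of 3057 pairs, with a median change of −0.19. At 24 h it fell in 330 and rose in 135 pairs, with a median of −0.06. At 48 h it fell in 329 and rose in 212, with a median of −0.04 and quartiles of −0.27 and 0.20. At 3 h it fell in 9 and rose in 13, with a median of 0.01. Over all 15658 pairs of a non-coding unit and a gene the ratio rose in 9.2% (3 h), 22.5% (12 h), 29.2% (24 h) and 31.7% (48 h), and fell in 1.12%, 17.6%, 19.3% and 19.2% at those times. The pairing differs within this background. Units that are not divergent were paired with the nearest tested gene on either strand, at any distance, and 3848 of them lay over a same-strand LTR copy. In each direction and at each time the share of divergent pairs that changed was below this background. The lower median at 12 h was not particular to divergent pairs. The 8752 other non-coding units without a same-strand LTR copy also had a median ratio change of −0.19 at 12 h. Among them the ratio fell in 23.3% and rose in 16.1%, against 13.4% and 1.18% of divergent pairs.

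Library by library, the 12 h shift was outside the spread of the 0 h libraries. The median ratio change over pairs was −0.13, −0.22 and −0.18 in the 12 h libraries, against 0.00, −0.06 and 0.08 in the 0 h libraries. The 3 libraries at 12 h were all lower than the 3 at 0 h. At 48 h the medians were −0.03, −0.02 and −0.03, inside the range of the 0 h libraries. The 447 ratio calls at 12 h came to 258 (0 h replicate 3 left out) and 282 (12 h replicate 2). The 22 at 3 h came to 12 (0 h replicate 1 left out), 13 (3 h replicate 2) and 13 (3 h replicate 3). Replicate 2 had the highest gene median and the lowest ratio median of its time at 0, 12 and 24 h.

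**Figure D3:**
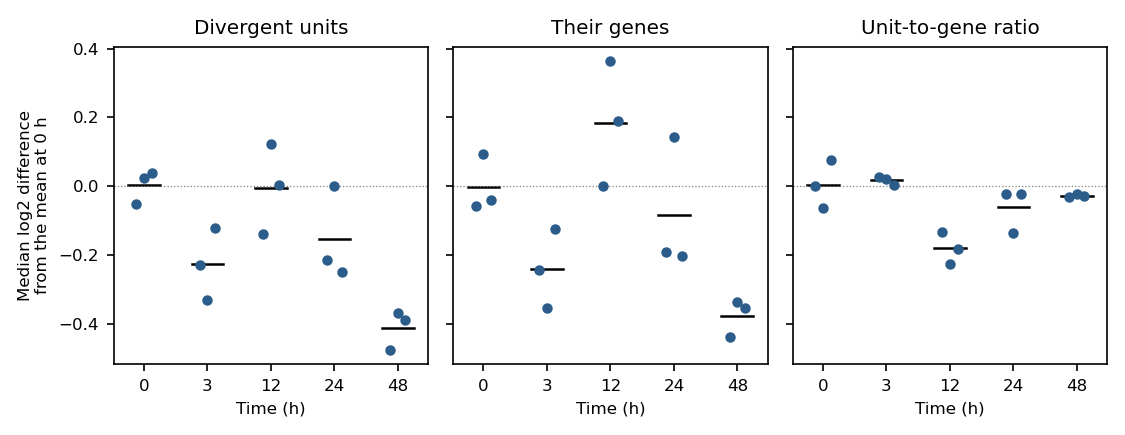
Median log2 change from the mean of the 0 h libraries (vertical axis) in each library at 0, 3, 12, 24 and 48 h (horizontal axis), for divergent units, for their genes and for the ratio of unit to gene, with points for libraries and bars for the mean of the 3. The ratio medians at 12 h (−0.22 to −0.13) lie below all those at 0 h (−0.06 to 0.08), whereas those at 48 h (−0.03 to −0.02) lie among them.

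The same shift was visible in sums. All tested units together had 3.66% ± 0.10 of the scaled reads of their genes at 12 h, against 4.07% ± 0.21 at 0 h (SD, n = 3 each). The libraries read 3.71%, 3.55% and 3.72% at 12 h, against 4.08%, 3.85% and 4.28% at 0 h, and the groups did not overlap. At 48 h the sum was 3.79% ± 0.05 (3.73%, 3.84% and 3.81%), just under the lowest 0 h library. At 24 h it was 3.92% ± 0.18 and at 3 h 4.13% ± 0.02, both overlapping 0 h. An exact permutation test of 3 libraries against 3 cannot go below p = 0.10. As a share of the scaled reads of non-coding units outside LTR copies and Rn45s, divergent units held 8.38% ± 0.04 at 48 h, 8.31% ± 0.50 at 24 h and 9.59% ± 0.20 at 12 h, against 9.58% ± 0.23 at 0 h. Both late groups lay below every 0 h library.

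The median ratio change at 12 h was nearer 0 in longer units, while the share of pairs called down did not follow length. In the shortest of 4 like-sized sets of tested pairs, with units of 200 to 2000 bp, the median ratio change at 12 h was −0.31, with 140 of 850 pairs down and 1 up. In the longest set, with units of 6200 to 167800 bp, it was −0.11, with 114 of 756 down and 20 up. The sets between had medians of −0.20 (68 of 743 down) and −0.14 (89 of 708 down), in order of length. Dividing the same pairs by the mean level of the unit gave medians of −0.21, −0.21, −0.19 and −0.14, lowest level first. Pairs that do not overlap gave 212 down and 20 up of 1615 at 12 h, and pairs that overlap gave 199 down and 16 up of 1442. At 48 h the ratio fell in 204 and rose in 94 pairs without overlap (median −0.09), and fell in 125 and rose in 118 with overlap (median 0.02). The difference between these subsets was not tested.

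A unit and its gene tended to change in the same direction. Across the 3057 pairs the correlation of their log2 changes was 0.29 (3 h), 0.48 (12 h), 0.55 (24 h) and 0.60 (48 h), as a description over pairs that share libraries. For the 1615 pairs without overlap it was 0.30, 0.47, 0.55 and 0.60 at the same times. With 1 library at 48 h against the mean of the same 3 libraries at 0 h, it was 0.55, 0.54 and 0.54 for replicates 1, 2 and 3. The 8752 other non-coding units without an LTR copy, paired with the nearest tested gene on either strand, gave 0.20, 0.35, 0.35 and 0.35. Units just outside the distance rule, at 2000 to 2500 bp from an opposite-strand gene start, gave 0.10, 0.20, 0.48 and 0.54. The late correlation was thus not particular to divergent units. Divergent units at 1500 to 2000 bp gave 0.43, 0.69, 0.70 and 0.68. These differences were not tested.

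At 48 h both members of a pair were called in 1246 of 3057 pairs, and 1232 of these went the same way, with 1170 down and 62 up. In 7 pairs the unit was higher and the gene lower, and in 7 the reverse. Of the called units 82.2% had a called gene, and of the called genes 57.3% had a called unit. These shares stand beside 2175 of all 3057 pairs with a called gene and 1515 with a called unit. Most calls of both kinds were falls at 48 h, so a shared direction alone says little about a pair. After rescaling over genes 642 pairs had both called and 567 went the same way. At the earlier times the pairs with both called that went the same way were 52 of 52 (3 h), 92 of 98 (12 h) and 179 of 186 (24 h).

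**Figure D4:**
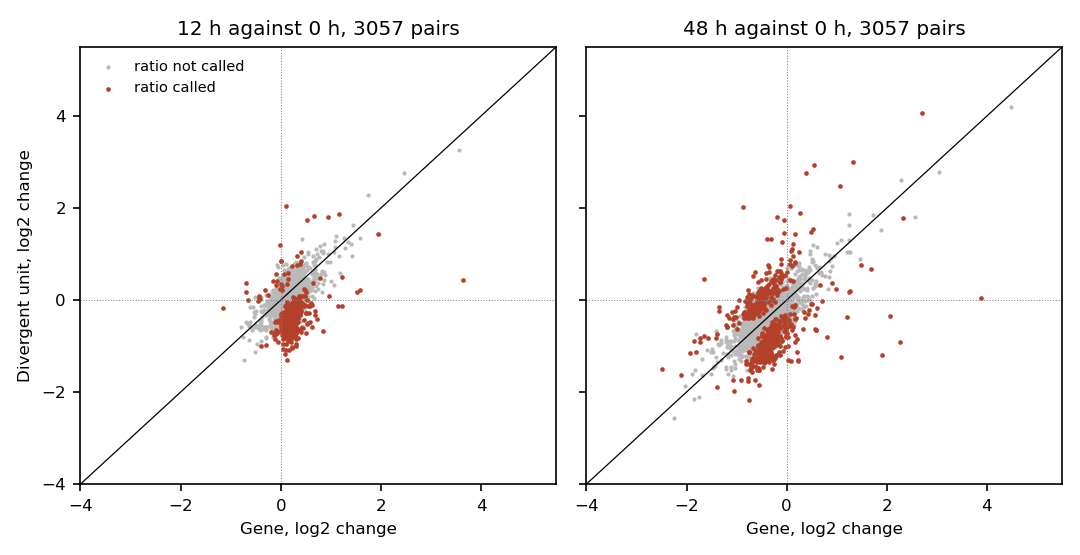
Log2 change of the divergent unit (vertical axis) against that of its gene (horizontal axis) for 3057 pairs at 12 h and at 48 h, each dot a pair, with pairs whose ratio was called in red. The clouds run along the diagonal, with correlations of 0.48 at 12 h and 0.60 at 48 h, and the called pairs lie to either side of it.

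Among the largest rises were units at genes with few reads of their own. The unit at Chit1, the gene of the chitin-degrading enzyme chitotriosidase, started 841 bp upstream (chr1:134105401-134110401, minus strand) and had 341.2, 404.4 and 347.7 scaled reads at 48 h, against 5.69, 4.99 and 8.57 at 0 h. Chit1 itself had 2.95, 6.2 and 3.06 at 48 h, against 0.813, 1.66 and 0 at 0 h. The unit was far above its 0 h range in every 48 h library while the gene stayed under the level needed for a test. The log2 change of the unit was 5.65 ± 0.19 (SE, adjusted p = 1.02e-23), and it was already 1.13 ± 0.19 at 3 h (adjusted p = 2.98e-05) and 3.53 at 12 h.

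The unit at Cyp4a29 started 683 bp upstream of the gene (chr4:115232201-115241401, minus strand). It had 241.5, 254.1 and 239.9 scaled reads at 48 h, against 0, 1.66 and 1.71 at 0 h, when 4 reads were counted in all. The gene had 8.86, 7.75 and 5.35 at 48 h, against 0.813, 0.832 and 0. The groups of the unit were fully apart, and the log2 change of 6.99 depends on the added 1 because of the few reads at 0 h. The unit at Defb48 had 87.1, 111.6 and 105.4 scaled reads at 48 h and no read at 0 h, so it was at least 122-fold higher against a floor of 3 counts over the 3 libraries at 0 h. Defb48 itself had 30.3, 23.2 and 26.0 at 48 h, against 2.44, 2.5 and 1.71 at 0 h, also without overlap. The units at Cyp4a29, Defb48 and Chit1, and below those at Olfr503, Lum, Kng2, Ccny, Zfp108, Catsperg1 and Aggf1, had a mean under 10 scaled reads at 0 h and passed the minimum through later times, so their rises are descriptions and their p-values are no independent support.

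At a further set of genes the unit and the gene rose together. The unit at the olfactory receptor gene Olfr503 had 42.1, 32.5 and 39.7 scaled reads at 48 h, against 0, 2.5 and 1.71 at 0 h, and the gene 46.5, 34.1 and 46.6, against 1.63, 1.66 and 0. Both groups were apart, and the ratio change was −0.29 ± 0.51 (adjusted p = 0.673). The unit at Lum, which encodes the matrix proteoglycan lumican, changed by 2.78 ± 0.24 and the gene by 3.05 ± 0.30, with a ratio change of −0.27 (adjusted p = 0.615). The unit at the kininogen gene Kng2, which overlaps the gene, changed by 4.07 ± 0.32 and the gene by 2.69 ± 0.13, and here the ratio rose by 1.37 ± 0.36 (adjusted p = 0.0038). Kng2 has a close paralog, and how reads of near-identical copies were counted is unknown here. The unit at the cyclin Y gene Ccny, also overlapping, changed by 3.01 ± 0.23 and the gene by 1.33 ± 0.12, with a ratio change of 1.68 ± 0.19 (adjusted p = 5.06e-07). The unit at Mir5131 rose by 2.99 ± 0.20, and its gene row was under the test minimum.

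Large called gains relative to the gene were at Nrd1 and Ghitm, neither overlapping its gene. The gain at 4933404O12Rik, named after its value was seen, was larger still, at 2.89 (adjusted p = 3.13e-11). Nrd1 encodes the metalloendopeptidase nardilysin. Its unit (chr4:108991401-109000401, minus strand) had 191.3, 224.7 and 188.7 scaled reads at 48 h, against 22.8, 25.0 and 28.3 at 0 h. The gene had 1556, 1673 and 1631 at 48 h, against 1027, 1205 and 1112 at 0 h. Unit and gene were both higher in every 48 h library, the unit by far more: its log2 change was 2.94 ± 0.16 (adjusted p = 9.57e-18), that of the gene 0.54 ± 0.12 (adjusted p = 5.67e-05) and that of the ratio 2.40 ± 0.12 (adjusted p = 2.07e-11). Ghitm encodes a protein of the inner mitochondrial membrane. Its unit (chr14:37135401-37147601, plus strand) had 288.0, 303.7 and 321.7 at 48 h, against 43.1, 42.4 and 47.2 at 0 h, while the gene had 1871, 2020.4 and 1971, against 1439.6, 1557 and 1496. All 48 h libraries were again above all 0 h libraries, with log2 changes of 2.76 ± 0.16 for the unit, 0.38 ± 0.12 for the gene and 2.37 ± 0.12 for the ratio (adjusted p = 2.15e-11).

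In further pairs the ratio rose beside a gene that did not pass the test or fell. The ratio rose by 2.00 ± 0.37 at the zinc finger gene Zfp108 (adjusted p = 0.0002), by 1.97 ± 0.26 at Catsperg1, a subunit gene of the sperm calcium channel, and by 1.79 ± 0.24 at the angiogenic factor gene Aggf1. In these 3 pairs the gene changed by −0.18, 0.07 and −0.05, none past the threshold. At Pla2g1b, a secreted phospholipase A2 gene, the unit had 67.9, 67.4 and 85.6 scaled reads at 48 h, against 53.7, 44.9 and 62.6 at 0 h, and the gene 189.1, 187.5 and 202.5, against 599.9, 659.6 and 564.9. Both were apart, in opposite directions, with a ratio change of 2.10 ± 0.18 (adjusted p = 1.58e-08). The rise of that unit, 0.45 ± 0.18, had an adjusted p of 0.0296 and lost its call with 0 h replicate 1, 0 h replicate 2 or 48 h replicate 3 left out. The unit at Slc25a28, the gene of the mitochondrial iron importer mitoferrin 2, rose by 1.33 ± 0.16 while the gene fell by 0.39 on the log2 scale, and the unit at Zfp369 rose by 0.58 ± 0.13 while the gene fell by 0.41. The other 4 pairs with a higher unit and a lower gene were at 4933404O12Rik, Ska1, Saraf and Upf3b, named here after their values were seen, with unit changes of 2.02, 0.76, 0.73 and 0.60 and gene changes of −0.87, −0.38, −0.35 and −0.63.

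In pairs whose ratio fell most, the gene rose and the unit did not. Mnd1 encodes a partner of the meiotic recombinase machinery, and it had 3439, 3630.2 and 3717 scaled reads at 48 h, against 814.5, 920.0 and 833.3 at 0 h. Its overlapping unit had 41.4, 41.1 and 42.8 at 48 h, against 61.0, 43.3 and 56.6 at 0 h. The gene rose by 2.07 ± 0.12, the unit changed by −0.34 ± 0.19 (adjusted p = 0.114), and the ratio fell by 2.41 on the log2 scale (adjusted p = 5.21e-08). At Tex15, a germline gene required for meiosis, the unit had 125.5, 116.2 and 115.4 scaled reads at 48 h, against 154.4, 178.8 and 132.9 at 0 h, and the gene 604.1, 601.9 and 621.2, against 242.2, 284.5 and 264.9. The 2 ranges did not overlap in either, and the ratio changed by −1.58 ± 0.13 (adjusted p = 1.12e-08). The fall of the Tex15 unit alone had an adjusted p of 0.0463 and was lost after rescaling and without 0 h replicate 1, 0 h replicate 2 or any of the 48 h replicates.

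The ratio fell by 3.18 on the log2 scale at the glycerol channel gene Aqp9, by 3.08 at the angiopoietin-like gene Angptl6 and by 2.34 at St8sia1, the gene of GD3 ganglioside synthase. In all 3 the unit fell (−0.92 ± 0.23, −1.19 ± 0.26 and −1.25 ± 0.20) and the gene rose (2.26 ± 0.20, 1.90 ± 0.18 and 1.10 ± 0.13). The units of Aqp9 and Angptl6 start deep inside their genes, 1888 and 1909 bp from the gene start, and that of St8sia1 starts 1149 bp upstream. At the histone H3.3 gene H3f3b the unit fell by 1.30 on the log2 scale while the gene changed by 0.22 ± 0.12 (adjusted p = 0.106). The other 3 pairs with a lower unit and a higher gene were at Asmt, Zfp572 and Pvr, named after their values were seen, with unit changes of −0.80, −0.65 and −0.38 and gene changes of 0.80, 0.59 and 0.36. In 6 of the 7 pairs of this kind, all but St8sia1, the unit overlaps the gene.

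**Figure D5:**
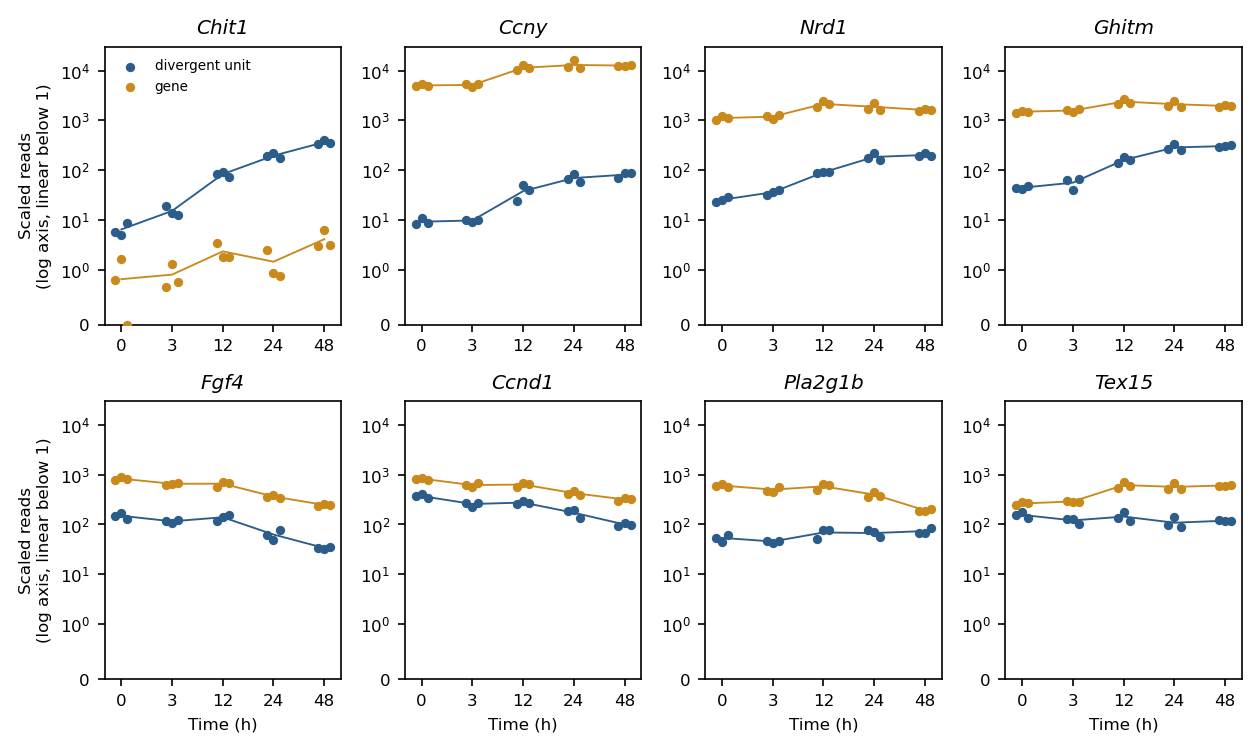
Scaled reads of the divergent unit and of its gene (vertical axis, linear below 1 and logarithmic above) in each library at 0, 3, 12, 24 and 48 h (horizontal axis) for Chit1, Ccny, Nrd1, Ghitm, Fgf4, Ccnd1, Pla2g1b and Tex15, with points for libraries and lines through the means. The Chit1 unit climbs to 341.2 to 404.4 scaled reads at 48 h while the gene stays at 2.95 to 6.2, and at Fgf4 and Ccnd1 both fall.

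In the 10 largest falls the gene was lower too. Fgf4 encodes a fibroblast growth factor made by embryonic stem cells. Its unit (chr7:144845001-144861201, minus strand) had 34.0, 32.5 and 34.4 scaled reads at 48 h, against 149.6, 168.0 and 130.3 at 0 h, and the gene had 236.3, 258.7 and 246.0, against 783.6, 909.2 and 805.0. Every 48 h library was below every 0 h library for both, with log2 changes of −2.11 ± 0.16 for the unit (adjusted p = 1.39e-13) and −1.75 ± 0.13 for the gene, and the ratio change of −0.36 ± 0.16 missed the threshold (adjusted p = 0.0733). At the cyclin D1 gene Ccnd1 the unit (chr7:144940001-144961801, plus strand) had 94.5, 107.7 and 97.8 at 48 h, against 369.9, 403.4 and 342.9 at 0 h. The Ccnd1 gene had 294.7, 334.7 and 327.8 at 48 h, against 823.4, 880.1 and 799.0 at 0 h. Again no library at 48 h reached the 0 h range, and the unit fell more than the gene, with log2 changes of −1.88 ± 0.14 and −1.38 ± 0.13 and a ratio change of −0.50 ± 0.10 (adjusted p = 0.000509).

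The deepest fall was at Nob1, whose product matures the small ribosomal subunit RNA. Its 1000 bp unit (chr8:107425201-107426201, plus strand) had 8.12, 6.2 and 7.64 scaled reads at 48 h, against 29.3, 36.6 and 43.7 at 0 h, while the gene had 875.1, 965.3 and 945.2, against 1499.8, 1616 and 1556. The groups were apart in both, and the ratio fell by 1.42 on the log2 scale (adjusted p = 6.95e-05). At Zbtb44, a zinc finger gene whose unit of 83800 bp overlaps it and covers Gm29724, the unit had 204.6, 268.0 and 258.3 at 48 h, against 796.6, 855.1 and 780.1 at 0 h. That unit changed by −1.74 ± 0.13 and the gene by −0.64 ± 0.12, and the ratio fell by 1.10 on the log2 scale (adjusted p = 1.01e-09). The units at Ric8b, Neurl1a, Gatsl3 and the proteasome gene Psmd7 changed by −1.75, −1.74, −1.73 and −1.70, and their genes by −0.77, −0.91, −1.07 and −0.76. At Mc5r, a melanocortin receptor gene, the unit changed by −1.88 ± 0.20 and the gene by −2.04 ± 0.33, and at Zscan12 by −1.84 ± 0.28 and −0.56 ± 0.13. After rescaling over genes all 10 of these falls and all 10 of the largest rises kept their call. For the rises named above as passing the minimum through later times, a kept call is no independent support.

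Some units moved within hours. The 5 units called higher at 3 h were at Olfr503, Defb48, Chit1, 4933404O12Rik and Nrd1. At Olfr503 and Defb48 they rest on means of 5.27 and 1.39 scaled reads at 3 h, against 1.40 and 0 at 0 h, under the minimum in both groups, and the Defb48 call was lost with DESeq2 and with a pseudocount of 5. The unit at 4933404O12Rik, named after its value was seen, averaged 134.6 scaled reads at 3 h, against 81.9 at 0 h (log2 change 0.73). At Nrd1 the change of 0.49 ± 0.16 (adjusted p = 0.034) was lost without 0 h replicate 1, 0 h replicate 2, 3 h replicate 2 or 3 h replicate 3. The unit at Pou3f1, a POU factor gene of the primed epiblast, had 57.4, 72.5 and 70.6 scaled reads at 3 h, against 126.0, 129.8 and 110.6 at 0 h, and no library overlapped. Its change of −0.86 ± 0.15 (adjusted p = 5.88e-05) also held after rescaling, and by 48 h the unit was at 143.3, 148.0 and 135. The falls at Eif4h, Rybp and Lamp1 at 3 h, of −0.93, −0.91 and −0.89, lost their call after rescaling over genes. At 12 h the largest falls were at Snai3 (−1.31), Zscan12 (−1.30), the 5-methylcytosine dioxygenase gene Tet2 (−1.13) and Dffa (−1.08), and at 24 h at Arl14epl (−1.71), Tet2 (−1.63), Mc5r (−1.58) and Zscan12 (−1.48). The overlapping Tet2 unit went on to −1.43 ± 0.23 at 48 h and its gene to −1.44 ± 0.12, with a ratio change of 0.01.

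The counts by gene group stand beside 45.9% of all tested divergent units lower and 4.15% higher at 48 h. Gene counts stand beside 58.4% of all tested genes lower and 7.65% higher. After rescaling these shares were 18.3% lower and 10.6% higher for divergent units, and 29.0% lower and 29.8% higher for all tested genes. No group was tested against these shares. At naive pluripotency genes 9 of 14 tested units were lower and 1 higher, with a median log2 change of −0.55, beside −0.42 for all divergent units. Besides Fgf4 these were led by Lefty2, a Nodal antagonist gene (−1.0 ± 0.16), and Nanog (−0.64 ± 0.13). After rescaling 4 were lower and 1 higher. Of all 28 tested genes of this group 24 were lower and 3 higher (19 and 5 after rescaling). At cytosolic ribosomal protein genes 13 of 20 units were lower and none higher (6 and 0 after rescaling), and 30 of 40 tested genes were lower and none higher. After rescaling 5 of these genes were lower and 11 higher. There the ratio of unit to gene fell in 7 of 20 pairs and rose in none, beside 10.8% lower and 6.93% higher over all divergent pairs. This difference was not tested. The unit changes were −1.29 ± 0.20 at Rpsa and −1.14 ± 0.18 at Rpl22, and the gene changes −0.28 and −0.54. At DNA replication genes 8 of 12 units were lower and none higher (4 and 1 after rescaling), with −1.15 ± 0.21 at Rpa2, −1.11 ± 0.20 at Rpa1, both parts of the single-strand binding protein, and −0.72 ± 0.13 at the licensing factor gene Cdt1. Their genes were lower in 30 of 33 and higher in none (15 and 2 after rescaling).

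Further groups were the genes of factors that pause, terminate or destroy early transcripts. At cleavage, polyadenylation and U1 factor genes 6 of 11 units were lower and none higher at 48 h, led by Snrnp70, which encodes a U1 particle protein (−1.01 ± 0.16), and 18 of 22 genes were lower. The ratio fell in 5 of these 11 pairs at 12 h and in 2 at 48 h, beside 13.4% and 10.8% of all divergent pairs. At 12 h it also fell in 5 of 12 pairs at DNA replication genes and 2 of 7 at Integrator and Restrictor genes. It fell then in 1 of 5 at exosome and adaptor genes and 1 of 10 at pausing and elongation genes, and rose in none of these groups. These differences were not tested. At Integrator and Restrictor genes 4 of 7 units were lower and none higher at 48 h, and 19 of 20 genes were lower. At RNA exosome and adaptor genes 2 of 5 units were lower and none higher, and 17 of 20 genes were lower. At pausing and elongation factor genes 6 of 10 units were lower and 1 higher, and 22 of 25 genes were lower and 1 higher. After rescaling the lower units numbered 2, 2, 0 and 1 in these 4 groups and the higher units 0, 1, 0 and 1. The lower genes then numbered 8, 6, 10 and 6 and the higher genes 5, 1, 4 and 4.

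At immediate early and stress genes 3 of 9 units were higher and none lower at 48 h (5 and 0 after rescaling). The unit at Klf6, a zinc finger factor gene, changed by 0.53 ± 0.18 and its gene by 0.76 ± 0.12, a unit call that was lost without 48 h replicate 2. At Jun, a subunit gene of AP-1, the unit over Junos changed by −0.18 ± 0.18 (adjusted p = 0.374, and 0.18 after rescaling) while the gene rose by 0.60 ± 0.14, and the ratio fell by 0.78 on the log2 scale (adjusted p = 0.000703). Of the 24 tested genes of this group 8 were higher and 7 lower (14 and 3 after rescaling). At p53 target genes 1 of 13 units was higher and 2 lower, with 0.56 ± 0.19 at the apoptosis gene Pmaip1, and 4 of 24 genes were higher and 7 lower. After rescaling 2 units were higher and none lower, and 15 genes were higher and 3 lower. At heterochromatin and silencing factor genes 1 of 12 units was higher and 5 lower, with −0.84 ± 0.22 at Sumo2, and none of 31 genes was higher and 24 were lower. After rescaling 2 units were higher and 2 lower, and 8 genes were higher and 12 lower. At epiblast and germ layer genes 1 of 5 units was higher and 2 lower, with −0.76 ± 0.18 at the TGF-beta family ligand gene Nodal, and after rescaling 2 were higher and 1 lower.

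The remaining groups had few divergent units, and their counts too stand beside 45.9% of all tested divergent units lower at 48 h. At aryl hydrocarbon receptor and xenobiotic genes 4 of 5 units were lower (1 after rescaling), with −0.98 ± 0.15 at Gclm, a glutathione synthesis gene. At interferon and RNA sensing genes 2 of 3 were lower, with −1.11 ± 0.20 at the ubiquitin ligase gene Trim25. The 2-cell-like genes had 20 rows, and 12 of the 13 tested rose at 48 h. A gene, like a unit, entered on its mean over all times, so it can pass through the times at which it is high. That count is therefore a description. This group had a single tested unit, at Zfp809 (−0.46 ± 0.23, adjusted p = 0.0812). The germline genes, 14 of 25 of which rose and 6 of which fell, had a single tested unit too, at Rpl10l (−1.09 ± 0.18).

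A small part of the units that rose lay near an LTR copy that rose. Of the 130 units higher at 48 h 10 (7.69%) lay within 5000 bp of an LTR copy called higher at 48 h, against 8 of the 1436 lower units (0.557%) and 33 of all 3129 tested units (1.05%). An LTR copy on the opposite strand overlapped 29.2% of the higher, 21.5% of the lower and 18.7% of all tested units. The median distance to such a risen copy was 297044 bp for the higher, 552273 bp for the lower and 520348 bp for all tested units. The unit at Zfp108 lay 56 bp from one. Of the 10 largest rises, that at Olfr503 lay 6977 bp away, Lum 16553 bp, Mir5131 66967 bp, Ccny 131787 bp, Defb48 178676 bp and Ghitm 472274 bp, while Nrd1 lay 695897 bp, Kng2 1.28 Mb, Cyp4a29 2.54 Mb and Chit1 3.85 Mb away. These shares were not tested against each other, and proximity was not tested as a cause.

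Divided in other ways, the units gave these counts at 48 h, with no difference between sets tested. Units without overlap with their gene had 66 up and 810 down of 1657 (median −0.46), and units with overlap 64 up and 626 down of 1472 (median −0.37). Units within 500 bp had 76 up and 1045 down of 2224. Units over a long non-coding RNA gene had 29 up and 335 down of 702, and units over no annotated gene 91 up and 1016 down of 2271. Units over a small RNA gene had 5 up and 32 down of 58, and units over an opposite-strand LTR copy 38 up and 309 down of 586. At the edge of the distance rule, the 165 tested units with 1500 to 2000 bp between the 5′ ends had 15 up and 84 down (median −0.49), and the 125 just outside it, at 2000 to 2500 bp, had 9 up and 70 down (median −0.60). In the authors' deposited table of calls, 1 of the 5175 units was marked higher and none lower after 3 h, 32 and 7 after 12 h, 50 and 55 after 24 h, and 58 and 278 after 48 h.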

How the data were processed

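TT-seq, which sequences RNA labelled during a short pulse, was done on 15 libraries, each sequenced in 2 runs (30 GEO samples), with 3 biological repeats at each of 5 times. Per the submitters' processing notes, STAR 2.5.2a, DESeq2 and deepTools were used with the builds mm10 and GRCm38, and the yeast RNA served to adjust samples to each other, per the series design. Counting tool, strand setting and gene annotation were not given in the sources used here.

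Each deposited row holds a signal for a transcription unit, which the authors had normalized: 99.9974% to 99.9991% of values were whole multiples, within 0.05, of the value of 1 read in their library (0.636 to 0.936), so whole reads could be recovered. Precision is limited by depth, 37122086 to 42293639 reads a library. The authors' deposited calls carry their own log2 changes and p-values and are quoted as calls alone.

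Values were tested as log2(signal + 1) with limma 3.58.1 (trend) in R 4.3.3, with all 15 libraries in 1 fit, units with a mean of at least 10, each time against 0 h, and Benjamini-Hochberg adjustment over all features of a class with a threshold of 0.05. The ratio was tested likewise on log2(unit + 1) minus log2(gene + 1). A fold change on this scale understates that of low units. Because the values were signal and not counts, edgeR 4.0.16 and DESeq2 1.42.0 on recovered reads were alternatives. Other alternatives were pseudocounts, level minimums, rescaling over genes, a fit without trend, 2 times alone, a replicate block, distance and overlap limits, and leaving out each library. The fits were tested on simulated data. Same strand overlaps were read with pyranges 0.1.4 from GENCODE M21.

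Named genes have an ordinary symbol, a unit above the lower quartile of tested levels, a call, and 3 later libraries all on 1 side of the 3 at 0 h. They are the 10 largest rises and 10 largest falls at 48 h, 4 and 4 at earlier times, 6 and 6 ratio changes, up to 6 opposite pairs, the 8 highest at 0 h and up to 3 for each gene list. Members and lists were chosen with earlier results of these data known.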

Additional observations from a re-analysis of the deposited data

Results flagged for a closer look

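The 3 libraries of a time all lay on 1 side of 0 for a median over pairs, and the 3 libraries of another time all lay on the other side. The difference between such times was not tested, and they share the 0 h libraries. For the genes that face a divergent unit, the mean of the library medians was −0.24 at 3 h, 0.18 at 12 h and −0.37 at 48 h on the log2 scale. For the ratio of unit to gene it was 0.0174 (3 h), −0.18 (12 h), −0.0604 (24 h) and −0.0265 (48 h). Groups of 3 libraries are too small to look for a single outlying library.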

How the results depend on the processing

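The median ratio change kept its direction at 12 and 24 h under all alternatives run, between −0.22 and −0.15 at 12 h with a library left out. The counts of called units, listed for 3, 12, 24 and 48 h where they moved by more than 1.5 times, were 59, 662 and 904 after rescaling over genes (3, 12 and 48 h), 80 and 592 with edgeR (3 and 12 h), and 24 and 758 with DESeq2 (3 and 48 h). They were 92 with no minimum and 100 without the trend at 3 h, and 450 and 1009 with a minimum mean of 30 (24 and 48 h, fewer units tested). Smaller sets gave 102, 183 and 459 units within 500 bp (3, 12 and 24 h) and 87, 169, 392 and 876 units without overlap. Ratio calls were 8 with no minimum, 7 with the 2 times alone and 13 without LTR copies at 3 h, 12 and 286 within 500 bp (3 and 12 h), and 9, 232, 249 and 298 without overlap. Genes called were 960 and 1341 after rescaling (12 and 24 h). The median unit change after rescaling was −0.0034 at 3 h, −0.184 at 12 h and −0.0675 at 48 h. Correlations were 0.29, 0.45, 0.52 and 0.58 without LTR copies and 0.30 without overlap at 3 h. The share of non-coding signal at 12 h, a log2 change of 0.0016, turned to −0.0130 without overlap, −0.0309 without LTR copies, −0.0276 without own-strand gene rows, −0.0441 without own-strand GENCODE genes and −0.000619 without small RNA genes. The cause of these moves was not tested.

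With a library left out, called units ranged from 55 to 242 at 3 h and 207 to 350 at 12 h, ratio calls from 12 to 22 and 258 to 452, and genes from 55 to 1307 at 3 h, 167 to 1172 at 12 h and 255 to 1016 at 24 h. Correlations ranged from 0.26 to 0.29 at 3 h, 0.44 to 0.47 at 12 h, 0.52 to 0.55 at 24 h and 0.59 to 0.60 at 48 h. The summed ratio at 3 h ranged from −0.0171 to 0.0584, and the share of non-coding signal from −0.00315 to 0.0323 at 3 h and −0.0152 to 0.0188 at 12 h. Of the named units, with rescaling and DESeq2 in that order, Kpna1 turned to 0.22 and 0.15, Ccdc107 to 0.11 and 0.0384, Mir6236 to 0.0765 and 0.0169 and Jun to 0.18 and 0.10, and with rescaling alone Sspn to 0.0240 and Rps29 to 0.0682. Deviations of single units from the mean of their time hardly correlated between libraries of the same replicate number. None of 30 such pairs had a correlation over 0.1 (−0.03 to 0.06), with a mean of 0.0157, against −0.0079 for other pairs. A correlation across units cannot show a shift of a whole library, so whether replicate numbers pair libraries was not settled. With a replicate block 736 genes were called at 3 h, and the block moved no other count by more than 1.5 times (206, 326, 720 and 1577 units). Units below a mean of 10 scaled reads are limited by depth.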
